A study of Mus musculus with 12 samples.

Results

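The thyroid antigen genes are 8 genes whose products make, store or regulate thyroid hormone: Tg, Tshr, Slc5a5, Slc26a4, Duox2, Iyd, Pax8 and Nkx2-1. They were chosen by name, with earlier results of these libraries known, from 21631 protein-coding genes, and every one is described. Each was read through the peaks that fell inside its annotated span in the mouse build mm10 or within 1 kb of either end. Those peaks define what was looked at, so their number, width and strength are given as a description, with no test.

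Chromatin accessibility was measured by ATAC-seq, in which a transposase cuts open chromatin, in mTEChi, the mature medullary thymic epithelial cells, of C57BL/6 mice aged 4 to 7 weeks. The 12 libraries formed 6 groups of 2. Knockout cells were Aire -/-, and heterozygotes carried a single altered copy of Aire, Aire +/C313Y (replicates 2 and 3) or Aire +/C442G. Each of these had its own pair of Aire +/+ libraries, and that match was read from how the titles are written, since no label states it. The labels name no other allele or treatment, do not say which part of Aire the knockout lacks, and do not say whether the libraries of a pair came from separate animals, so the spread between them may be technical. With 2 libraries against 2, an exact permutation test cannot go below p = 0.333.

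Thyroid follicular cells take up iodide through the sodium-iodide symporter, pass it to the follicle through pendrin, and attach it to thyroglobulin with hydrogen peroxide made by dual oxidases. Thyrotropin drives these steps through its receptor, and the transcription factors Pax8 and Nkx2-1 set up the lineage and act together on its genes. In the thymus the same genes matter as self antigens: AIRE, the autoimmune regulator, promotes the expression of many tissue-restricted genes in mTEChi, which display them to developing T cells, and thyroglobulin and the thyrotropin receptor are targets of thyroid autoimmunity.

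Of the 8 genes, 6 had a start of transcription in the RefSeq promoter table (GRCm38.p6, the same coordinates as mm10), and Tg and Tshr had none. A promoter window ran from 250 bases before the start to 50 bases after it. For Slc5a5, Pax8, Nkx2-1, Iyd and Duox2 the window held a peak in 0 of 12 libraries, and for Slc26a4 in 3 (2 wild-type, 1 mutant), where a peak inside the gene reached its edge. The Duox2 start used, 122298227, lies inside its annotated span, which runs upstream to 122298740, beyond the window. Among all 32619 promoter windows, 51.1% held a peak in at least 1 library and 29.5% in all 12. The window of Duoxa2, which encodes the maturation factor that brings DUOX2 to the cell surface and lies head to head with Duox2, held a peak in 11. Shown here, 5′ to 3′, are the bases upstream of the start that lie outside every annotated gene, for the promoter that carried a peak and for 3 that did not. Capitals mark matches to the motifs listed after them.
Duoxa2, chr2:122298741-122298899, plus strand: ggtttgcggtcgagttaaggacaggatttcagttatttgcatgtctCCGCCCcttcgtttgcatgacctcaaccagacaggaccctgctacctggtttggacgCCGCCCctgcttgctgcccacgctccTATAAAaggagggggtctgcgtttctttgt
Pax8, chr2:24475600-24475849, minus strand: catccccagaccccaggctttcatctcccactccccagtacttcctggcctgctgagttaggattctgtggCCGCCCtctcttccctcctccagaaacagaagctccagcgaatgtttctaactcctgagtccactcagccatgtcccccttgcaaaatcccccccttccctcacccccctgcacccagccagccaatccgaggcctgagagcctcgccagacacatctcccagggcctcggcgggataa
Nkx2-1, chr12:56536909-56537158, minus strand: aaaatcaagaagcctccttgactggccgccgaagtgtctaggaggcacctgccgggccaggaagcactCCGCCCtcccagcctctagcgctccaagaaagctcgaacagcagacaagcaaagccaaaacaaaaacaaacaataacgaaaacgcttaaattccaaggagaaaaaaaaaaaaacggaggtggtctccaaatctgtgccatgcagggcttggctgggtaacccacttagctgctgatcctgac
Iyd, chr10:3540024-3540273, plus strand: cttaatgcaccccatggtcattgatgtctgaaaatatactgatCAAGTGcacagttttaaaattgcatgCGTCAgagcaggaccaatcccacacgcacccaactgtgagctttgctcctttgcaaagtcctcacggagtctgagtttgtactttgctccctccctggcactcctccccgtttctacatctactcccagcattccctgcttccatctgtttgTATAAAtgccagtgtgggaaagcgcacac

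The motifs were searched on both strands of the 300-base windows, and none of the matches overlapped another. CTCAAG, the core bound by NKX2-1, matched at Slc26a4 (position −152 from the start) and Duox2 (−106), and is present in 15.7% of all promoters. CAAGTG, a core of other NKX2 factors, matched at Iyd at −207 (13.5% of promoters), and TGACG, the core of the cyclic AMP response element, at Iyd at −181 and at Nkx2-1 just after the start (20.9%). The TATA box, TATAAA, was found at Slc26a4, Iyd and Duoxa2 at −31, −29 and −30 (13.7%). The GC box, GGGCGG, matched Slc5a5 (−56), Pax8 (−179), Nkx2-1 (−182) and Duoxa2 at −113 and −56 (35.9%). Duoxa2 also held the AP-1 motif TGANTCA at −168 (7.85%), in bases that belong to the annotated span of Duox2 and are not printed. No window matched the NF-kB motif (5.59%) or the ETS core CCGGAA (15%).

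In base composition the 7 promoters spread around the median. Slc5a5 had 67% G and C and 29 CpG dinucleotides in its window, Duoxa2 56.7% and 19, Pax8 59.3% and 7, Duox2 55.3% and 10, Nkx2-1 53.7% and 12, Slc26a4 50% and 6, and Iyd 49% and 6. The median was 53% and 7 over all windows, 62.7% and 23 over windows with a peak in all 12 libraries, and 47% and 3 over windows with no peak. Slc5a5 thus lay above the median of the windows with a peak in all 12 on both counts and still had no peak there in 12 libraries.

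Peak lists differed in length across the series, from 34047 to 122326 peaks. The wild types of the knockout had the shortest lists, 34715 and 34047, against 85826 and 94976 in the knockout. A peak that is absent was therefore not called at that library's depth, which is unknown, and fewer cells with open chromatin cannot be told apart from weaker opening in each cell. Of 14 mTEC genes, 11 to 14 per library had a peak, while 63.5% to 77.3% of all genes had one. Aire, Epcam, Krt14, Krt8, Cd80, H2-Aa, H2-Ab1, Ciita, Tnfrsf11a and Relb had one in all 12 libraries, while Krt5 had none in the 4 libraries of the knockout comparison and Ccl21a had one in 1 library. Of all genes, 58.7% had a peak in all 12, and so did markers of other cells such as Lck, Pax5 and Pecam1. The counts therefore cannot check the sort label.

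Across libraries, 7 of the 8 thyroid genes had a peak somewhere, and 3 had one in all 12 (Tshr, Slc26a4 and Duox2, 37.5%, against 58.7% of all protein-coding genes). Tg and Slc5a5 had a peak in 11 libraries, Pax8 and Nkx2-1 in 8, and Iyd in none. Of all genes, 16.1% had no peak in any library. The median number of libraries with a peak was 11 for the 8 genes and 12 for all genes, although the 8 were longer (median span 29.9 kb against 17.3 kb).

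**Figure D1:**
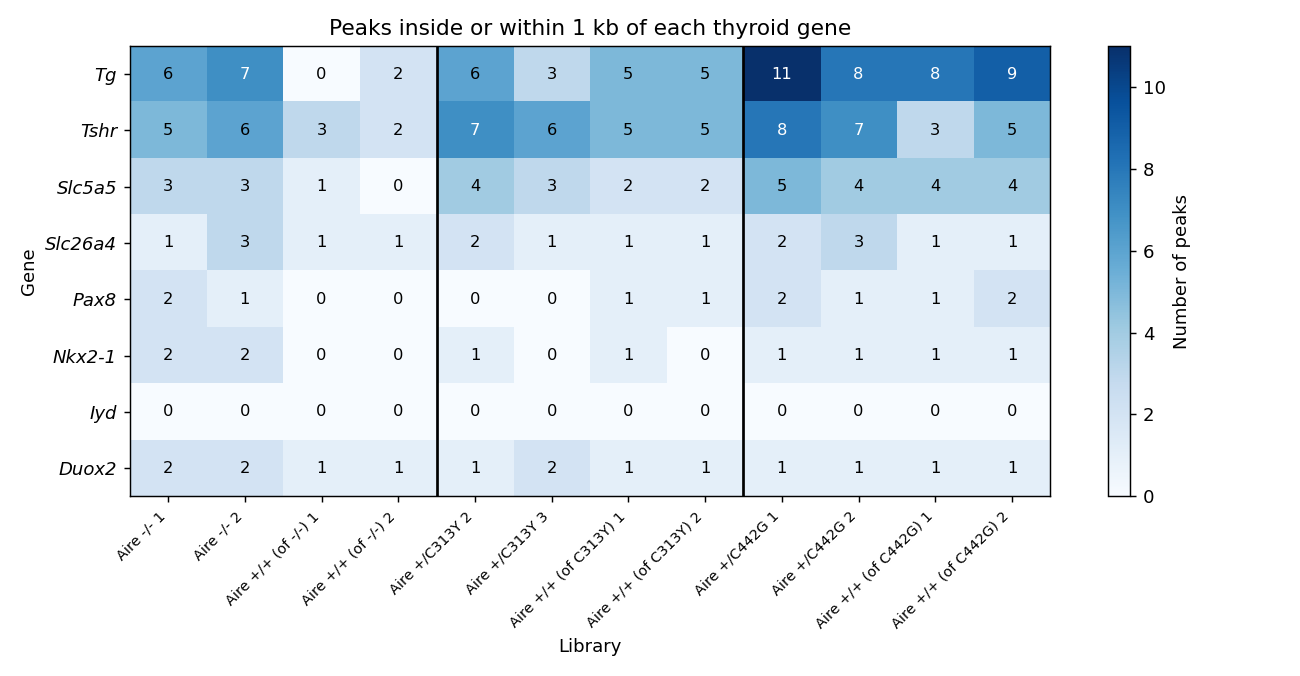
Number of peaks inside or within 1 kb of each thyroid gene (rows) in each of the 12 libraries (columns); the colour and the printed number both give the count, and black lines part the 3 comparisons. Tg reaches 11 peaks in C442G heterozygote replicate 1, and the row of Iyd is 0 throughout.

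Thyroglobulin, encoded by Tg (chromosome 15, 66670754 to 66850721), is the large secreted protein on which thyroid hormone is built. Knockout libraries had 6 and 7 peaks at Tg, and their wild types 0 and 2. With C313Y the heterozygotes had 6 and 3 peaks and the wild types 5 and 5. The C442G heterozygotes had 11 and 8, their wild types 8 and 9. Only the knockout pair stood clear of its wild types. With every list of that comparison reduced to its 34047 strongest peaks, the knockout kept 0 and 1 Tg peaks and the wild types 0 and 2, so the separation was not seen between lists of equal length.

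The 70 Tg peaks of all libraries merged into 21 regions, and no library had a peak within 1 kb of the lower-coordinate end of the gene. The nearest peak below that end lay 92.6 to 93.1 kb away in every library. Of the 21 regions, 11 were seen in 1 library, and 2 were seen in 10. The first of these 2, at 66676715 to 66677166, lay 5.96 kb inside the gene and was absent from both wild types of the knockout. Its peaks were 89 to 446 bp wide, and the authors' fold enrichment, which describes a peak within its own list, was 4.27 and 4.78 in the knockout, 6.81 and 9.09 in C442G heterozygotes and 6.42 and 7.66 in C442G wild types. The widest peaks there were those of the C442G heterozygotes, 446 and 374 bp against 151 and 125 bp in their wild types, and the widths did not overlap between these groups. That difference was seen after the values were known and was not tested. The share of all regions whose widths separate in this way was not computed. Mean widths in C442G heterozygotes against their wild types went both ways elsewhere. They were 176 against 98.5 bp at the other recurrent Tg region and 660 against 812 bp at the recurrent Slc26a4 region. That other Tg region, at 66689137 to 66689357 (18.4 kb inside), was absent from replicate 1 of the knockout's wild types and replicate 2 of the C313Y wild types. Its folds ran from 3.85 to 4.75 over 7 scored lists. In rank, the strongest Tg peak of each list stood at the 49.7th to 83.3rd percentile of the 7 scored lists that had one.

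A second gene, Sla (66780819 to 66831829), lies within Tg and encodes an adaptor that dampens antigen receptor signalling in lymphocytes. Of the 70 Tg peaks, 28 (40%) lay within 1 kb of Sla, whose window makes up 29.1% of that of Tg, so these peaks cannot be given to either gene alone. Among them the region at 66803889 to 66804288 had a peak in 6 of 6 mutant libraries and 1 of 6 wild types, C442G wild-type replicate 1. That contrast between genotypes was seen after the values were known and was not tested. Outside Sla, the knockout had 3 and 4 Tg peaks against 0 and 1, the C313Y heterozygotes 4 and 2 against 5 and 3, and the C442G heterozygotes 7 and 4 against 4 and 5. T cell genes, Sla among them, were counted in the same libraries. Of 13, 8 and 7 had a peak in the knockout against 4 and 5 in its wild types. With C313Y it was 8 and 7 against 7 and 5, and with C442G 7 and 8 against 7 and 6. Of all genes, 73.9% and 74.9% had a peak in the knockout libraries against 64.2% and 63.5% in their wild types. The shares were 74.9% and 71.8% against 75% and 71.8% with C313Y. With C442G they were 77.3% and 76.4% against 75% and 75.4%. Cd8a and Rag1 had none in any library, Cd3g had one in 1 library, Cd3e in 2, and Lck and Rag2 in all 12. Their part in the Tg counts was not tested.

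**Figure D2:**
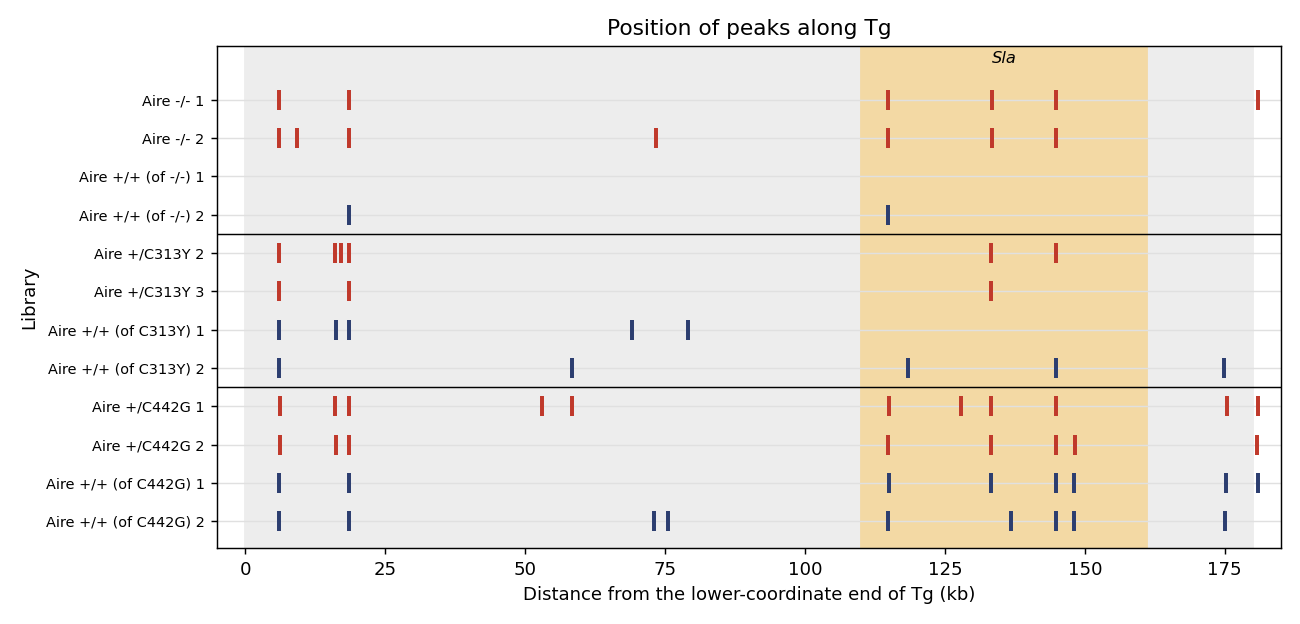
Peaks along Tg in each library (rows; red mutant, blue wild type), placed by distance in kb from the lower-coordinate end of the gene; grey is the annotated span of Tg and the shaded block that of Sla. Peaks recur near 5.96 and 18.4 kb, in 10 libraries each, and within Sla.

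The thyrotropin receptor gene Tshr (chromosome 12, 91400993 to 91540509) was the gene with most recurrent regions, 2 of them called in all 12 libraries. There were 5 and 6 peaks in the knockout and 3 and 2 in its wild types. C313Y heterozygotes had 7 and 6, and their wild types 5 and 5. C442G heterozygotes had 8 and 7, against 3 and 5. Mutant libraries thus had more Tshr peaks than their wild types in all 3 comparisons, without overlap in counts. The share of all genes whose counts separate in this way was not computed, here or for the other thyroid genes. Per 10000 listed peaks the knockout and its wild types overlapped, while the heterozygotes of both kinds stayed above their wild types. Lists of equal length gave 3 and 3 against 3 and 2 in the knockout comparison and 7 and 7 against 3 and 5 with C442G. With C313Y, where lists could only be cut by width, they gave 3 and 6 against 3 and 5.

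Tshr had 3 regions in 10 or more libraries. The region at 91400308 to 91401210 crosses the lower-coordinate end of the gene and was called in 12 of 12. In the knockout its fold was 6.1 and 9.54, in the knockout's wild types 3.84 and 4.08, in C442G heterozygotes 13.8 and 14.1, and in C442G wild types 12.1 and 8.85. A second region, 91423247 to 91423683, lay 22.3 kb inside and was also called in all 12, with folds of 4.5 to 9.44. The region at 91418927 to 91419058, 17.9 kb inside, was absent from replicate 2 of the knockout's wild types and replicate 1 of the C313Y wild types, with folds of 4.71 to 10.4. One of these 3 regions had the highest fold of any thyroid-gene region in each of the 8 scored lists: the gene-end region in 5, the region 17.9 kb inside in 2 and that 22.3 kb inside in 1. The strongest Tshr peak stood at the 57.7th to 96.3rd percentile of its list, with a median of 89.6.

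Among the other Tshr regions, 2 were called in 4 libraries, none of them wild type. At 91433423 to 91433743, 32.4 kb inside the gene, both heterozygotes of C313Y and both of C442G had a peak, and the 6 wild types and the knockout had none. Its peaks were 85 and 78 bp wide with C313Y and 122 bp wide in C442G heterozygote replicate 1, and the peak of replicate 2 ran from 91433431 to 91433743. The C442G folds were 3.66 and 3.9. The pair of C313Y peaks did not overlap each other and were joined through the wider C442G peak. Of 228401 merged regions in the genome, 298 (0.13%) had a peak in all 4 heterozygotes and in no wild type. At 91425225 to 91425320, 24.2 kb inside, both knockout and both C442G heterozygote libraries had a peak, of 74 to 85 bp, with folds of 2.98 and 4.52 in the knockout and 4.53 and 4.13 in the heterozygotes. These sites were picked out because of their pattern, so the pattern is no evidence for itself.

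**Figure D3:**
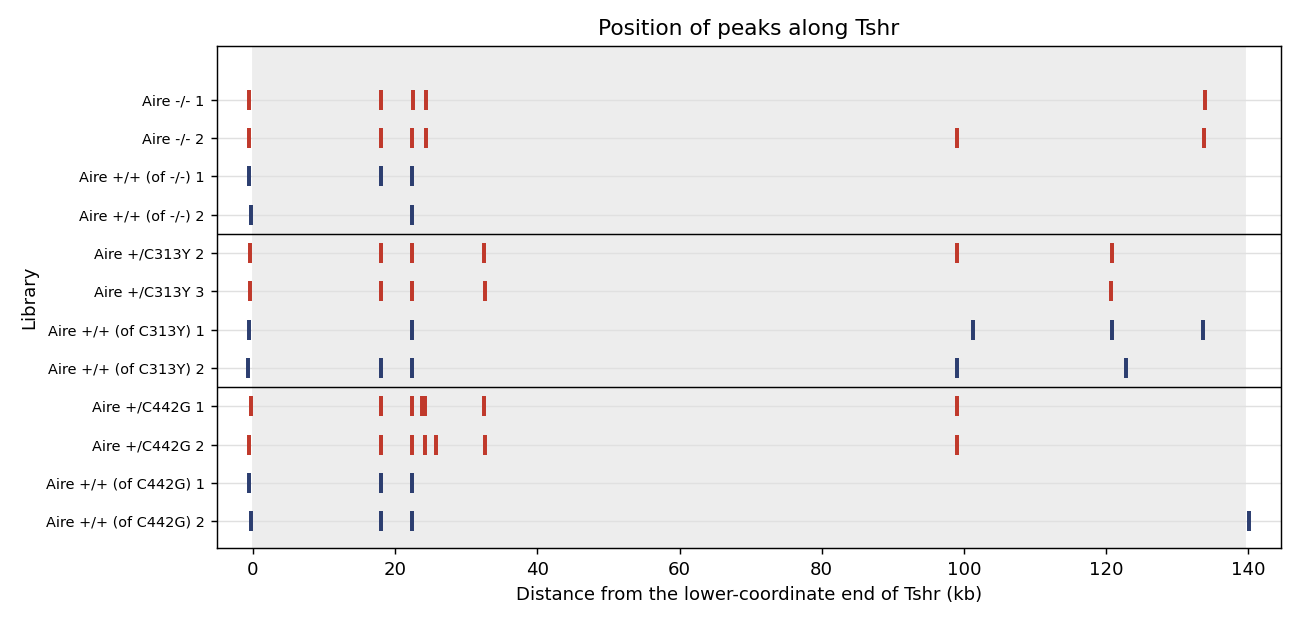
Peaks along Tshr in each library (rows; red mutant, blue wild type), by distance in kb from the lower-coordinate end; grey is the annotated span. Every library has a peak at the gene end and near 22.3 kb, and the marks near 32.4 kb belong to the 4 heterozygote libraries.

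The sodium-iodide symporter gene Slc5a5 (chromosome 8, 70882885 to 70892785) carried peaks inside the gene, not at its start. Knockout libraries had 3 and 3 and their wild types 1 and 0. C313Y heterozygotes had 4 and 3 against 2 and 2, and C442G heterozygotes 5 and 4 against 4 and 4. The knockout and C313Y counts did not overlap those of their wild types, while the C442G counts did. At equal list length the knockout had 2 and 2 against 1 and 0, and C442G heterozygotes 5 and 3 against 4 and 4. The C313Y lists hold no strengths and were cut by width, which removed their narrowest peaks. After that cut C313Y heterozygotes had 2 and 2 against 2 and 2, so that the C313Y separation ended. The uncut C313Y lists were of like length, 75830 and 57280 peaks against 73976 and 55861. Of its 5 regions, that at 70891348 to 70891690, 1.07 kb downstream of the start of transcription, was called in 11 libraries, all but replicate 2 of the knockout's wild types. Its folds were 5.26 and 5.36 in the knockout, 4.46 in the other wild type of that comparison, 7.65 and 6.58 in C442G heterozygotes and 5.87 and 6.14 in C442G wild types. The region at 70885707 to 70885953 was called in 10 libraries, all but both wild types of the knockout, with folds of 4.57 to 7.94.

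A further Slc5a5 region, at 70893715 to 70893829, lay at position −958 from the start and was the farthest from its gene that the 1 kb limit still took in. It had a peak in all 6 mutant libraries and in 2 of 6 wild types, both of them C442G wild types, with widths of 68 to 108 bp. Just outside the limit lay peaks 1.98 kb from Slc5a5 (3 libraries) and 1.69 kb from Slc26a4 (1 library).

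Pendrin, the product of Slc26a4 (chromosome 12, 31519814 to 31560055), exchanges iodide and other anions across the apical membrane. The knockout had 1 and 3 peaks, its wild types 1 and 1, the C313Y heterozygotes 2 and 1 against 1 and 1, and the C442G heterozygotes 2 and 3 against 1 and 1. One region accounted for the peak in all 6 wild types. Merged over libraries it spanned 31559020 to 31559974 and ended 10 bp inside the start of transcription, an edge set by C442G wild-type replicate 2. In the other libraries the peak ended between 31559422 (replicate 1 of the knockout's wild types) and 31559956 (C442G wild-type replicate 1). The first bases of the gene were thus not covered in every library. The region was called in 12 of 12 libraries and was wide with low folds. Its width was 518 and 927 bp in the knockout, 374 and 443 bp in its wild types, 202 and 726 bp in C313Y heterozygotes, 589 and 562 bp in their wild types, 474 and 845 bp in C442G heterozygotes and 760 and 865 bp in theirs. The folds lay between 3.32 and 4.53 in the 8 scored lists. Slc26a4 accordingly stood at the 0.951st to 54.9th percentile of those lists by strength, and at the 62.3rd to 97.8th percentile by width in the 4 lists that hold positions only. Beyond the 1 kb limit, a region 7.58 kb upstream (31567640 to 31567930) had a peak in all 12 libraries, with folds of 4.36 to 11.6, and one 4.4 kb downstream had a peak in 10.

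Duox2 (chromosome 2, 122279246 to 122298740) encodes an oxidase that supplies the hydrogen peroxide used in hormone synthesis. It had 2 and 2 peaks in the knockout against 1 and 1, 1 and 2 in C313Y heterozygotes against 1 and 1, and 1 peak in each of the 4 C442G libraries. Per 10000 listed peaks the knockout stood lower, at 0.233 and 0.211 against 0.288 and 0.294, and at equal list length it had 1 and 0 peaks against 1 and 1. The region that recurred, 122298624 to 122299006, covers the upper end of Duox2 and the start of Duoxa2 printed above, and was called in 11 libraries. Peaks there were 128 and 200 bp wide in the knockout, 334 and 334 bp in C442G heterozygotes, and 341 and 238 bp in C442G wild types. Replicate 2 of the knockout's wild types had 93 bp there and replicate 1 had none. In that replicate 1 the call for Duox2 rested on an 80 bp peak at 122291102 to 122291181 that no other library had. The presence of Duox2 in 12 of 12 libraries thus came from different sites. The shared site lies at the annotated upper end of Duox2, which is its upstream end, as well as at the promoter of its partner. Peaks reached the annotated start of Duoxa2 at 122298900 only in both C442G heterozygotes and in C442G wild-type replicate 1.

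Iyd (chromosome 10, 3540274 to 3554880), whose enzyme recovers iodide from iodotyrosines, had no peak in 12 libraries. Peaks lay beside it. A region 3.49 kb upstream (3536485 to 3536781) had a peak in 9 libraries, all but both wild types of the knockout and replicate 2 of the C313Y wild types, with folds of 3.5 to 4.05. Another, 8.58 kb upstream (3531490 to 3531697), had a peak in 11 libraries, with folds of 3.73 to 9.43.

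The genes of the thyroid transcription factors had few peaks, at most 2 in a library. Pax8 (chromosome 2, 24420551 to 24475599) had 2 and 1 in the knockout and 0 and 0 in its wild types, 0 and 0 in C313Y heterozygotes and 1 and 1 in their wild types, and 2 and 1 in C442G heterozygotes against 1 and 2. The C313Y and knockout comparisons thus went opposite ways. The pair of C313Y wild-type peaks lay at different places, an 81 bp peak at 24460892 in replicate 1 and a 103 bp peak at 24456881 in replicate 2, so no single site separated those groups. In contrast, one site, 24440112 to 24440537, carried a peak in both knockout and all 4 C442G libraries, 35.1 kb from the start. Its folds were 3.28 and 3.21 in the knockout, 5.21 and 6.37 in C442G heterozygotes and 4 and 5.02 in C442G wild types.

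Nkx2-1 (chromosome 12, 56531935 to 56536908), which also acts in lung and forebrain, had 2 and 2 peaks in the knockout and 0 and 0 in its wild types. C313Y heterozygotes had 1 and 0 and their wild types 1 and 0. Each C442G library had 1. They fell in 3 regions, seen in 5, 4 and 1 libraries, with folds of 3.3 to 5.05. The strongest Nkx2-1 peak stood at the 4.72nd to 60.1st percentile of its list and that of Pax8 at the 17.1st to 67.6th. Stronger signal lay beyond the 1 kb limit: a region 4.27 kb upstream of Nkx2-1 (56541178 to 56541461) had a peak in 11 libraries, with folds of 5.22 to 12.8, and one 6.31 kb downstream had a peak in 9.

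**Figure D4:**
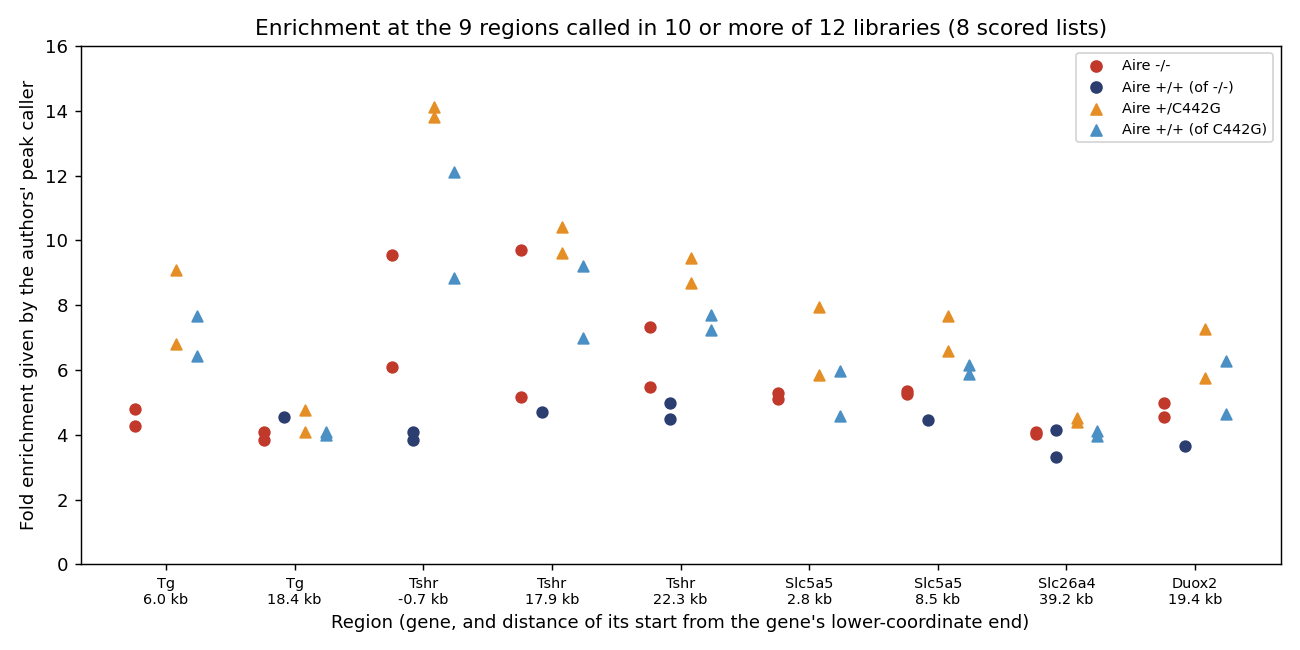
Fold enrichment given by the authors' caller (vertical axis) at the 9 thyroid-gene regions called in 10 or more libraries, labelled by gene and distance in kb from its lower-coordinate end; each point is 1 of the 8 scored lists, and a missing point is a region not called. Tshr regions reach 14.1 and the Slc26a4 region stays between 3.32 and 4.53.

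Set against genotype, gained means here a peak at the gene in each of the 2 mutant libraries with none in their wild types, and lost means the opposite. In the knockout 2 of 8 were gained, Pax8 and Nkx2-1 (25%, against 5.42% of all genes), and 0 were lost (0.0277% of all genes). All 4 C442G libraries had a peak at both genes, wild types included. At equal list length neither gene had a peak in any of the 4 libraries of the knockout comparison. With C313Y 0 of 8 were gained (0.578% of all genes) and 1, Pax8, was lost (12.5%, against 0.439%). With C442G 0 were gained (0.749%) and 0 lost (0.162%). With 8 genes, a single gene is 12.5%, and the shares describe these libraries only.

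The 8 genes held 21 and 24 peaks in the knockout and 6 and 6 in its wild types, 21 and 15 in C313Y heterozygotes against 16 and 15, and 30 and 25 in C442G heterozygotes against 19 and 23. Per 10000 listed peaks this was 2.49 ± 0.0567 in the knockout and 1.75 ± 0.024 in its wild types (SD, n = 2 each), a log2 ratio of 0.51. It was 2.69 ± 0.107 against 2.42 ± 0.369 with C313Y (log2 ratio 0.15) and 2.31 ± 0.197 against 2.23 ± 0.287 with C442G (0.05), both within the spread of the wild types. With lists of equal length the knockout libraries had 6 and 6 peaks against 5 and 6, and the separation ended. Pooled over their summed length, the 8 genes had fewer peaks than genes at large in each library. The ratio of their peak density to that of all gene windows was 0.531 and 0.532 in the wild types of the knockout and 0.708 to 0.952 in the other 10. Most of that length is Tg (180 kb) and Tshr (140 kb), so the ratio does not hold gene by gene. Over the 12 libraries Slc5a5 held 35 peaks in a span of 9.9 kb, and Tg 70 in 180 kb.

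**Figure D5:**
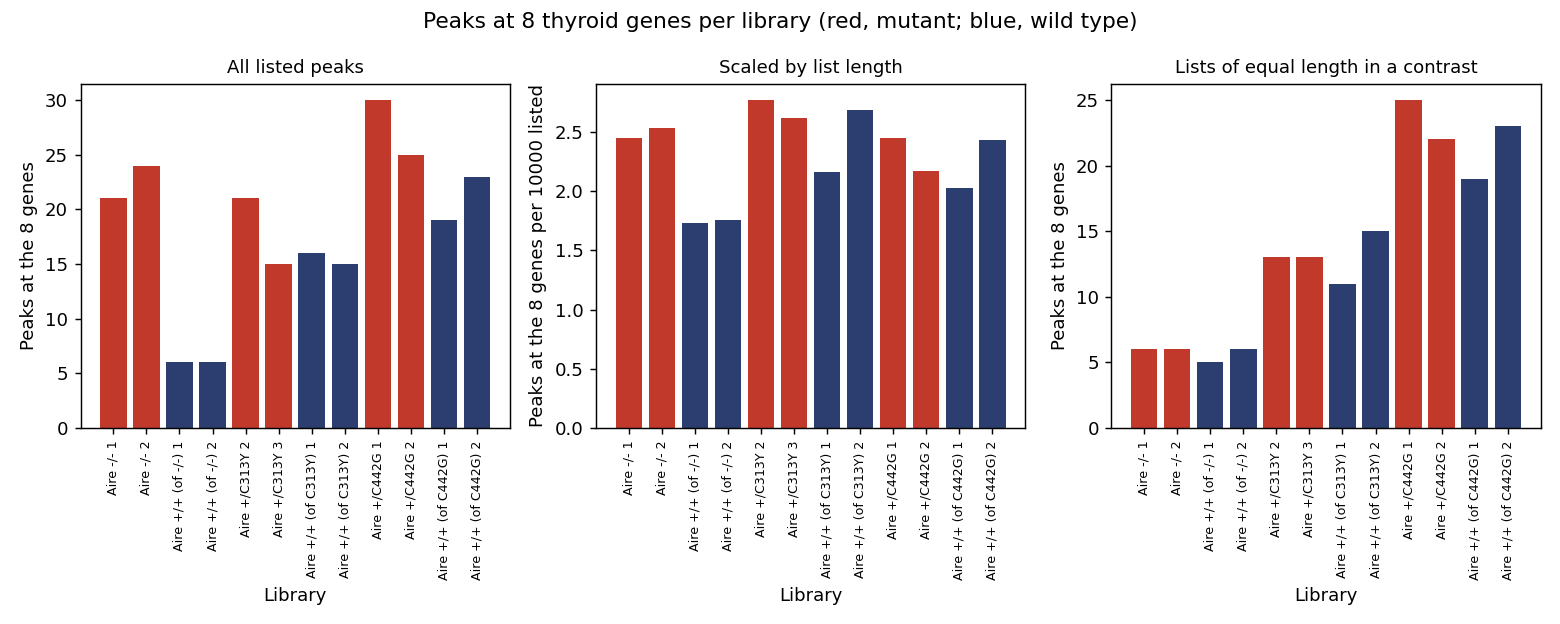
Peaks at the 8 thyroid genes in each library (bars; red mutant, blue wild type), as counted (left), per 10000 listed peaks (middle) and with the lists of each comparison cut to equal length (right). The knockout libraries, 21 and 24 against 6 and 6 on the left, come to 6 and 6 against 5 and 6 on the right.

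Site by site, the 8 genes held 58 merged regions, 9 of them in 10 or more libraries (15.5%, against 14.8% of all regions) and 28 in 1 library (48.3%, against 44.2%). Those 9 were 2 at Tg, 3 at Tshr, 2 at Slc5a5 and 1 each at Slc26a4 and Duox2. In the knockout comparison 9 of 29 regions were gained (31%, against 20.6%) and 0 lost (0.0795% genome-wide). With C313Y 3 of 31 were gained (9.68%, against 4.45%) and 0 lost (1.39%), at Tg, Tshr and Slc5a5. With C442G 4 of 39 were gained (10.3%, against 7.14%) and 0 lost (1.01%), 1 at Tg and 3 at Tshr. At these counts 1 region more or less moves a share by several percentage points.

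Other genes of thyroid hormone biology were counted in the same way, and their gains are to be read beside the shares over all genes, 5.42% in the knockout, whose wild types have far shorter lists, 0.578% with C313Y and 0.749% with C442G. Of 9 further synthesis genes, Duox1, Slc5a8, Slc26a7 and Kcnq1 had a peak in all 12 libraries and Kcne2 in none. Of 9 deiodinase, transporter and receptor genes, Dio1, Slc16a10, Thra and Thrb had one in all 12 and Slco1c1 in none, with 0 gained or lost in any comparison. Of 4 genes of pituitary and hypothalamic control, Trhr was gained with C313Y and Tshb, the thyrotropin beta subunit, with C442G. Tshb had a peak in 1 knockout library, both C442G heterozygotes and no wild type. Of 5 further lineage regulators, Glis3 and Hoxa3 had a peak in all 12, Hhex in 11, Foxe1 in 7, and Tbx1 was gained in the knockout. The calcitonin-producing C cells share the gland, and of 3 of their genes Ret had a peak in all 12 while Calca and Calcr were gained in the knockout.

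Markers of other cells were counted for the same libraries. In the knockout comparison the gained markers were Lat of 13 T cell genes, Clec9a, Csf1r and Cd68 of 7 dendritic cell and macrophage genes, and Kdr of 4 endothelial genes, beside 5.42% of all genes. B cell genes gained 0 of 5 in all 3 comparisons. Dcn of 5 fibroblast and mural genes was lost with C313Y (0.439% of all genes) and Lum gained with C442G (0.749%). Of 6 lung epithelial genes, which share Nkx2-1 as a regulator, Sftpc and Scgb1a1 had a peak in all 12 libraries and none was gained or lost. The part of such cells in the thyroid-gene counts was not tested.

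The genes whose peaks most resembled those of Tg over the 12 libraries, by Pearson correlation of covered length per 10000 listed peaks on a log2 scale among 16962 genes, were Golm1, 3425401B19Rik and Rnase4, each at r = 0.99. All 3 had 0 peaks in replicate 1 of the knockout's wild types, the library in which Tg had none, and the points share their list lengths.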

How the data were processed

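ATAC-seq peaks were deposited by the authors as 1 list per library. MACS2, Bowtie2, cutadapt and Picard are the tools, and mm10 the build, per the submitters' processing notes, which give no versions. In 8 lists, per the files' columns, the authors give each peak a score, a fold enrichment (ratio over background), −log10 p and −log10 q, and the deposited score is close to 10 times −log10 q. The 4 lists of the C313Y comparison were deposited as positions only, so peaks there were ranked by width. How reads were shifted, or what served as background, is not given in the sources used here.

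Libraries were grouped by title and genotype. Peaks on chromosomes 1 to 19 and X were assigned to a gene when at least 1 bp overlapped its RefSeq span (GRCm38.p6) plus 1 kb, and were merged over all 12 lists into regions where they overlapped. That gene table gives neither strand nor exons, so exons, introns and untranslated parts were not told apart. The members and lists (other synthesis genes, deiodinases to receptors, pituitary control, lineage regulators, C cell, mTEC, T cell, B cell, dendritic cell and macrophage, endothelial, fibroblast and lung epithelium) were chosen with earlier results of these data known. Genes named are the 8, neighbours within 1 kb of their regions, list members with a stated count, and the 3 most like Tg among genes with a peak in at least 3 libraries. Promoter sequences are from RefSeq, and motifs were searched as exact letters. Some genes that this rule names are not reported here.

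Alternatives were lists of equal length, a minimum −log10 q of 3, other windows and overlaps, all 6 wild types, each library left out, presence in 1 library, unscaled counts, and peaks near other genes left out. No depth is known and no interval could be given. The counting was tested on simulated lists. Python 3.11.15, numpy 2.4.6, pandas 2.3.3 and matplotlib 3.10.9 were used.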

Additional observations from a re-analysis of the deposited data

Results flagged for a closer look

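At 3 of the 8 genes, every mutant library lay above its wild types in 1 comparison and every one below them in another, in peaks per 10000 listed peaks. Whether these differences differ between the comparisons was not tested, and each group had 2 libraries. The share of all genes with such a pattern was not computed, so the 3 genes cannot be set against it. Slc5a5 was higher by 0.189 in the knockout (mean 0.333 against 0.144) and by 0.211 with C313Y (0.526 against 0.314), and lower with C442G, a difference of −0.047 (0.378 against 0.425), where its counts were 5 and 4 against 4 and 4. Pax8 was higher by 0.169 in the knockout, where the wild types had none, and lower with C313Y, a difference of −0.157, where the heterozygotes had none. Nkx2-1 was higher by 0.222 in the knockout, again with none in the wild types, and lower with C442G, a difference of −0.022 (0.084 against 0.106). The C442G values for Nkx2-1 come from 1 peak in each of 4 lists of unequal length, and so do not reflect a difference in count. With lists of equal length, cut by width for C313Y, Slc5a5 had 2 and 2 peaks against 2 and 2 with C313Y. It had 5 and 3 against 4 and 4 with C442G, so both of those directions ended. At equal length Pax8 and Nkx2-1 had no peak in any library of the knockout comparison.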

How the results depend on the processing

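Over 108 recomputed values, 84 stayed close to the reported one. Counts were compared by number alone, whichever genes they held, and 3 in place of 2 passed as close. A log2 ratio passed when it moved by no more than the spread between replicates. The total includes counts of 0 that stayed at 0, as in 12 of 12 alternatives for losses in the knockout. Genes gained in the knockout stayed close in 8 of 12, and the knockout's log2 ratio of peaks in 4 of 13. The genes gained in the knockout, 2 as reported, came to 1 with −log10 q of at least 3 (Duox2), 0 with lists of equal length, 1 with peaks within 1 kb of gene ends only (Slc5a5), 0 against all 6 wild types, and 2 to 3 with each library left out. With 5 kb flanks the count was again 2, but of Pax8 and Iyd, and the call of Nkx2-1 ended. Genes gained with C313Y, 0 as reported, came to 1 at gene ends (Slc5a5), and those gained with C442G, 0 as reported, to 1 with −log10 q of at least 3 (Slc26a4). The gene lost with C313Y, Pax8, was not lost with lists cut by width to equal length, at gene ends or against all 6 wild types (0 each). Each library left out gave 0 gained with C313Y and C442G and 1 lost with C313Y. Losses in the knockout and C442G stayed at 0 in every alternative.

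The log2 ratio of peaks per 10000 in the knockout, 0.51, was 1.13 with −log10 q of at least 3, 0.13 with lists of equal length, 0.46 without flanks, 0.40 with 5 kb flanks, 0.48 with at least 50% of the peak inside, 0.22 against all 6 wild types, 0.41 without peaks near other genes and 1.91 unscaled. It reversed to −0.26 at gene ends, and ran from 0.49 to 0.53 with each library left out. With C313Y, 0.15 became 0.96 at gene ends and 0.34 against all 6 wild types, with 0.00 to 0.32 over libraries left out. With C442G, 0.05 became 0.58 with −log10 q of at least 3 and 0.39 unscaled, reversed to −0.21 at gene ends, and ran from −0.07 to 0.19 over libraries left out. The cause was not tested, except that gene ends alone hold few peaks and the unscaled ratio contains the difference in list length. The −log10 q alternative could not be run for C313Y. No paired analysis was possible because no result here comes from a test. Unknown depth limits every absence, most of all in the short lists of the knockout's wild types.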
